A study of Mus musculus with 2 samples.

Results

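Trh, the gene of the thyrotropin-releasing hormone precursor (ENSMUSG00000005892), was 1 of 32285 genes measured in mouse embryonic stem cells. It was chosen because its fall from the first culture condition to the second was the largest among the 2760 genes that reached a CPM of 50 in one library or the other, on the scale of log2(CPM + 1). CPM here is the sum of unique molecular identifiers (UMIs, 1 per captured RNA molecule) over the cells of a library, scaled to a total of 1000000. The difference between the libraries therefore chose the gene and is given as a description, with no test. The questions asked of the data were which cells carried Trh, which genes varied with it from cell to cell, and where its few UMIs in the second library lay.

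Cells of the R1 line, an established line of mouse embryonic stem cells, were kept in N2B27, a serum-free medium, for 72 hours. The LB culture grew on gelatin with the self-renewal cytokine LIF and with BMP4, a signalling protein of the TGF-beta family. The LBPXRS culture grew on fibronectin with LIF, BMP4, PD0325901 (a MEK inhibitor), Xav939 (a tankyrase inhibitor that lowers WNT signalling), SB431542 (an inhibitor of the activin and NODAL receptors) and a compound that the labels call Resorcyclic lactone, whose target they do not give. Each condition had 1 library, so the coating, the added compounds and the culture itself cannot be told apart, and every interval below covers counting error only. After filtering, LB held 1783 of 2008 barcodes with a median of 25418 UMIs per cell, and LBPXRS held 2705 of 3111 with a median of 19058.

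The libraries also stood apart in ways the media do not name. LB cells held 2872 UMIs of Y-linked genes and LBPXRS cells held 1. The log2 ratio (LBPXRS over LB) had a median of -0.61 over genes of chromosome 8 and -0.63 over genes of chromosome 11, against -0.17 over all 7661 genes that reached a CPM of 10 in one library or the other, and -0.076 over those of chromosome 6, where Trh lies. Of the UMIs given to ferritin light chain (Ftl1) or its pseudogene Ftl1-ps1, the pseudogene took 47.6% in LB and 0.410% in LBPXRS. The part of these differences in the Trh result was not tested. Leaving the genes of chromosomes 8, 11 and Y out of the totals gave Trh a log2 ratio of -7.81, against -7.60 with them. That step changes only the scaling of the libraries, so it cannot show what part the differences have.

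The Trh precursor is a secreted protein that holds several copies of a short stretch which convertases cut out, carboxypeptidases trim, a glutaminyl cyclase closes into pyroglutamate and an amidating enzyme finishes, yielding the tripeptide TRH. Neurons of the hypothalamus release it, and in the pituitary it acts on a G protein-coupled receptor to raise the release of thyroid-stimulating hormone and prolactin. Thyroid hormone in turn lowers transcription of the gene in those neurons.

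In the GENCODE annotation of GRCm38 (mm10), Trh lies at chr6:92242061-92244650 on the minus strand and is protein coding. Its transcript has 3 exons, of which exon 1 spans positions 92244548 to 92244650, exon 2 spans 92243672 to 92243887 and exon 3 spans 92242061 to 92243125. Since the chemistry reads the 3′ end of polyadenylated RNA, the UMIs count molecules and are not divided by gene length. The 250 bases upstream of the start (chr6:92244651-92244900, minus strand, 5′ to 3′, from RefSeq, GRCm38.p6) are shown because none of the 10 nearest genes differed between the libraries as far as Trh did. Capitals mark TGACCTCA, which holds a nuclear receptor half-site, and TATAAG, the letters of a TATA box.
Trh promoter: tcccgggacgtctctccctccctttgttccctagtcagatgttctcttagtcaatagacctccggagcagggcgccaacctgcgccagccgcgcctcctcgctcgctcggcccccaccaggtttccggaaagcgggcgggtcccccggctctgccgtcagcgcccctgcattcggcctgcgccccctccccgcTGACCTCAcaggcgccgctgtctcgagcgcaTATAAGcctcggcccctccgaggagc

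Counted back from the annotated start, with the last base before it as position -1, TGACCTCA begins at position -57. On the opposite strand the same letters hold the half-site AGGTCA, and these 2 matches overlap. Of 32851 promoter windows of this length searched on both strands, 1.94% held TGACCTCA and 14.0% held AGGTCA. The letters of the TATA box begin at -26, and 6.65% of windows held it. A GC box, GGGCGG, begins at -117, and 32.7% of windows held one. The window is 68.8% G or C, against a median of 52.4% over all windows, and it holds 25 CpG dinucleotides against a median of 6. No match was found in it for a cAMP response element (TGACGTCA), a T-box (TCACACC), a TCF/LEF motif (CTTTGAT), an ESRRB motif (TCAAGGTCA), a STAT motif (TTCNNNGAA), an OCT motif (ATGCAAAT) or a SOX motif (ATTGTT). These are matches of letters, and no binding was measured.

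LB cells held 14703 Trh UMIs in 1165 cells, a level of 323 CPM (95% Poisson interval 318 to 328). LBPXRS cells held 35 Trh UMIs in 30 cells, a level of 0.675 CPM (0.470 to 0.939). Trh was thus 479-fold lower in LBPXRS (344 to 687), a log2 ratio, with a pseudocount of 1, of -7.60 (-7.78 to -7.39). The next largest falls by that measure were those of Psmb8, an immunoproteasome subunit, at -7.22, and T, the primitive streak factor brachyury, at -6.59. That order was found with a pseudocount of 1 and changed in both other scales tried. As plain ratios of CPM, Psmb8 was 7810-fold lower (1401 to 308504, from 1 UMI in LBPXRS), T 1743-fold (596 to 8455), Isg15 1068-fold (365 to 5184) and Hand1, with 0 UMIs in LBPXRS, at least 1452-fold against a floor of 3 counts in that library, so that Trh came 5th. With a pseudocount of 0.1 Trh came 4th, at -8.70, after Psmb8, Hand1 and T. For scale, 221 of those 7661 genes (2.88%) were at least 4-fold lower in LBPXRS and 156 (2.04%) were at least 4-fold higher.

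The genes beside Trh on chromosome 6 did not show a fall of this size. Of the 5 on each side, Fgd5, a guanine nucleotide exchange factor, had the lowest log2 ratio, -1.22, and Prickle2, a planar polarity protein, the highest, 0.66. The most abundant of them, the mitochondrial ribosomal gene Mrps25, read 88.8 CPM in LB and 59.8 CPM in LBPXRS. The gene nearest to Trh on the side of its 3′ end, Rbsn, an endosomal trafficking protein, read 9.06 and 7.08 CPM.

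Within LB, Trh was spread unevenly over cells. The median LB cell held 2 Trh UMIs, the lower and upper quartiles were 0 and 11, and the highest cell held 129. No Trh UMI was found in 618 LB cells, 1 in 206, 2 to 4 in 254, 5 to 19 in 463, 20 to 49 in 202 and 50 or more in 40. Those 40 cells, 2.24% of the library, held 18.7% of its Trh UMIs, and the 178 cells with the highest Trh share of their own UMIs (10% of cells) held 47.4%. The variance over cells was 23.7 times the mean, and the correlation of Trh with the log of a cell's total UMIs was 0.069. Depth and Trh were thus only weakly related over LB cells, though cells with at least 50 Trh UMIs had a median of 31509.5 UMIs and cells with none had 22664.5.

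**Figure D1:**
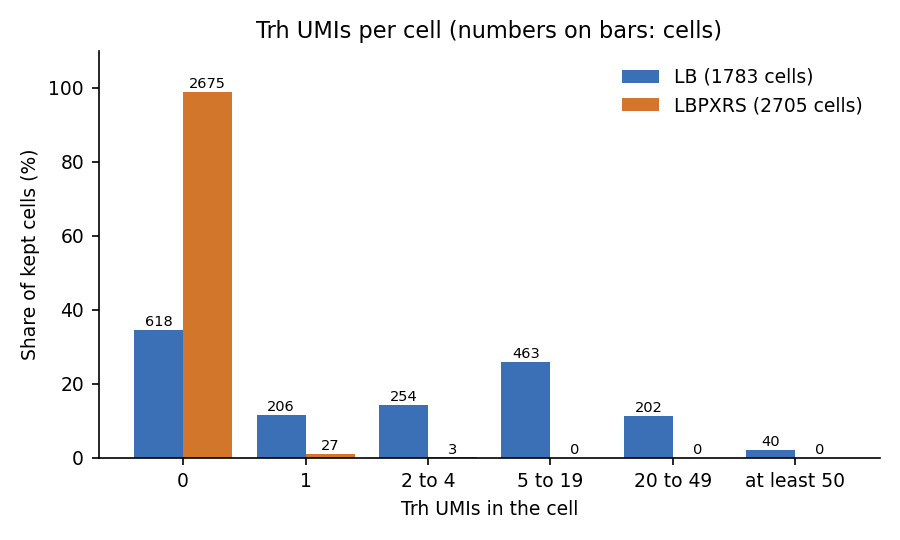
Share of kept cells (vertical axis, percent) by the number of Trh UMIs in the cell (horizontal axis), with LB in blue, LBPXRS in orange and the number of cells above each bar. LB cells reach from 0 to at least 50 UMIs, while 2675 of 2705 LBPXRS cells hold none and no LBPXRS cell holds more than 4.

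Shares of cells were compared at equal depth by thinning each cell to 5000 UMIs, which left out 50 LB and 84 LBPXRS cells with fewer. After thinning, a Trh UMI was found in 795 of 1733 LB cells, or 45.9% (Clopper-Pearson interval 43.5 to 48.3), and in 8 of 2621 LBPXRS cells, or 0.305% (0.132 to 0.601). Without thinning the shares were 65.3% and 1.11%. The gap between the libraries thus held with and without thinning.

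LB cells were clustered without Trh among the clustering genes, and clusters were named from marker lists. The order of Trh over the 7 LB clusters ran from cells with pluripotency genes to cells with genes of differentiated lineages. Naive pluripotent-like cells (761 cells, 42.7% of LB) had raised Klf2, Klf4, Esrrb, Tfcp2l1, Nanog, Zfp42, Dppa3, Nr0b1, Tcl1 and Fgf4, genes of the ground state of pluripotency. They read 498 CPM of Trh (488 to 507), held 70.5% of all LB Trh UMIs and had a median of 9 Trh UMIs per cell. At equal depth 70.9% of them held a Trh UMI.

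The highest level was that of a small cluster without a name, led by Slc7a3, an amino acid transporter, Spp1, which encodes osteopontin, and Pmel, a melanosome protein. Its 60 cells (3.37% of LB) read 1413 CPM (1326 to 1504) and held 6.72% of LB Trh UMIs, and 51 of 54 of them (94.4%) held a Trh UMI at equal depth. These cells were shallow, with a median of 10781 UMIs against 27221 in the naive pluripotent-like cells. They also carried naive genes, at levels from 0.488 (Esrrb) to 2.89 times (Nr0b1) those of the naive pluripotent-like cells, with a median of 1.00 over the 13 of the list and 5 of them lower. Zfp42 read 808 CPM in both, Nanog 98.7 against 113 CPM and the core factor Sox2 136 against 231 CPM. Their Trh level was 2.84-fold that of the naive pluripotent-like cells (2.66 to 3.03), and the part of depth in it was not tested.

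Another cluster, led by Pim2, Fgf5, Dnmt3b and Pou3f1, also kept Trh. Fgf5 encodes a growth factor, Dnmt3b a DNA methyltransferase and Pou3f1 a transcription factor, all 3 used as markers of formative or primed pluripotency, but the cluster's median marker ratio was too low for a name. Its 324 cells read 341 CPM (329 to 354) and held 20.1% of LB Trh UMIs. Trh was 1.46-fold lower there than in naive pluripotent-like cells (1.40 to 1.52), while Zfp42 stood at 53.8 against 808 CPM and Klf2 at 50.1 against 547 CPM. Each of the 13 naive genes differed more than Trh between these clusters, from 1.64-fold for Nanog to 27.6-fold for Tcl1, with a median of 11.3-fold, while Utf1 differed 1.86-fold. Within the cluster Trh was uneven, with a median of 2 UMIs per cell, an upper quartile of 11 and 71.6% of cells holding any.

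Trh was low in every cluster with markers of differentiation. Primitive streak-like cells (223 cells, with T, Mixl1 and Fgf8 raised) read 45.3 CPM (39.6 to 51.6), which was 7.53-fold below the Fgf5 and Dnmt3b cluster (6.58 to 8.66). A few cells carried this level, since the median streak-like cell held 0 Trh UMIs and 7 cells held 50% of the cluster's 228. Trophoblast-like cells (56 cells, with Gata3, Krt8 and Krt18 raised) read 18.0 CPM (12.4 to 25.3) and mesoderm-like cells (284 cells, with Mesp1, Hand1 and Pdgfra raised) read 16.4 CPM (13.5 to 19.8). These last 2 did not differ beyond counting error, with a ratio of 1.10 (0.719 to 1.63), but 1 cell with 6551 UMIs held 16 of the 33 Trh UMIs of the trophoblast-like cells. Without it they read 9.30 CPM (5.42 to 14.9), 0.567 times the mesoderm-like level (0.318 to 0.9499), an alternative chosen after seeing the data. The lowest level, 7.66 CPM (4.19 to 12.8), was in an unnamed cluster of 75 cells led by Pitx1 and Hox genes, and with all cells counted the other neighbours in this order differed beyond their counting intervals.

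RNA free in the droplets gives every cell a few UMIs of abundant genes. In the Pitx1 and Hox cluster, 1 of 73 cells (1.37%, 0.0347 to 7.40) held a Trh UMI at 5000 UMIs, and Trh stood at 2.37% of its level over all LB cells. The same cluster held Utf1 at 3.63%, Klf2 at 3.85%, Tdh at 4.73%, Dppa5a at 6.05% and Zfp42 at 7.23% of their LB levels. Trh was thus no higher there, relative to the whole library, than these other genes of pluripotent cells, and its level in that cluster could not be told apart from such background.

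**Figure D2:**
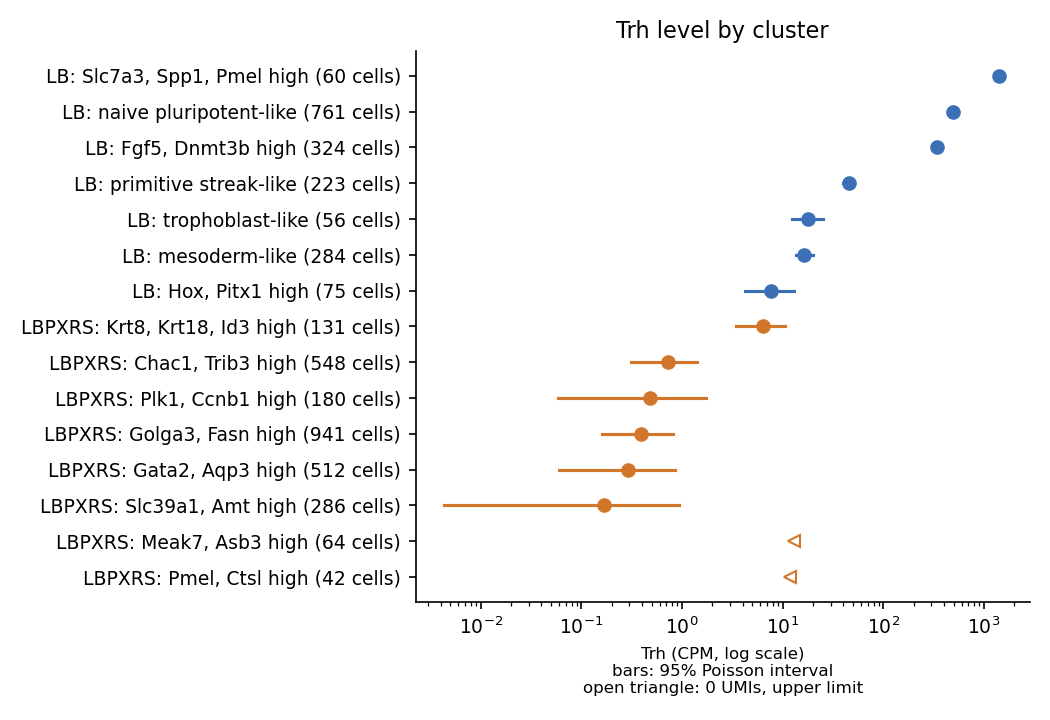
Trh level (horizontal axis, CPM on a log scale) in each cluster of at least 40 cells, LB in blue and LBPXRS in orange, with 95% Poisson intervals and open triangles marking the upper limit where a cluster had 0 UMIs. LB clusters run from 1413 down to 7.66 CPM, and the highest LBPXRS cluster, at 6.36 CPM, lies near the lowest LB cluster.

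Partners of Trh were sought as the genes with the highest Pearson correlation over the 1783 LB cells of log-normalised values, among 4821 other genes with an LB CPM of at least 20. These correlations describe cells that share 1 library, and they carry no p-value. The median r over all genes was -0.012, with 2.5% of genes below -0.288 and 2.5% above 0.319, and 45 genes had an r over 0.4. The 15 partners had r from 0.474 to 0.623.

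Mkrn1, a RING-finger ubiquitin ligase, came first with an r of 0.623. Utf1, a chromatin-bound factor of undifferentiated cells, followed at 0.614, and Dppa5a, an RNA-binding protein of pluripotent cells, at 0.609. Tdh, the threonine dehydrogenase on which mouse embryonic stem cells rely for one-carbon metabolism, had 0.598, and Chchd10, a mitochondrial protein, had 0.584. The naive pluripotency factors Zfp42 (Rex1) and Klf2 had 0.551 and 0.550. The others were Pla2g1b, Dppa4, Hsd17b14, Mybl2, Pycard, Sox2, 1700097N02Rik and Gtsf1l, with r from 0.509 down to 0.474.

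The 8 genes with the lowest correlation were Limd2 (r of -0.497), Gnas, Mdk, Serpinh1, Lgals1, Peg3, Tpm1 and Scand1 (-0.441). They include a heparin-binding growth factor (Mdk), a collagen chaperone (Serpinh1), galectin 1 (Lgals1), a tropomyosin (Tpm1) and the imprinted genes Gnas and Peg3. In naive pluripotent-like cells Serpinh1 read 8.69 CPM against 91.6 CPM over all LB cells, and Lgals1 read 87.4 against 316 CPM.

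The marker lists showed the same arrangement across cells. Of the 13 naive genes, 11 correlated positively with Trh over LB cells (median r 0.320), and the exceptions were Tbx3 and Prdm14, at -0.021 and -0.00018. Of 12 primitive streak genes with a CPM of at least 1 none was positive, and 1 of 14 mesoderm genes was, Lefty2 (0.306), a NODAL antagonist that naive cells also carry. Of 9 trophoblast genes 8 were negative. The formative or primed list was split, with 6 of 11 positive and r from -0.257 for Sox4 to 0.614 for Utf1. Over the 4821 genes 45.2% were positive.

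At equal depth, LB cells with a Trh UMI held Utf1 more often than cells without one, 82.1% (79.3 to 84.7) against 36.0% (33.0 to 39.2). Zfp42 was found in 74.0% of the former and 29.96% of the latter. T was found in 7.17% (5.48 to 9.19) against 28.8% (25.9 to 31.8), and Hand1, a mesoderm and trophoblast factor, in 2.52% against 22.7%. Fgf5 did not separate them, at 2.26% (1.35 to 3.55) against 2.13% (1.31 to 3.27). Genes of pluripotency were thus found more often beside Trh, and genes of the streak and its descendants less often, beyond counting error in each pair but that of Fgf5.

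Cells with more Trh UMIs had less of the streak and trophoblast lists at each step, and more of the formative list, while the naive, mesoderm and primitive endoderm lists turned at the highest step, within overlapping intervals. With 0, 1, 2 to 4 and at least 5 Trh UMIs among 5000, the summed level of the 14 primitive streak genes was 531, 271, 117 and 81.2 CPM. The trophoblast list read 665, 134, 70.5 and 45.7 CPM over the same steps. The mesoderm list read 419, 195.2, 129 and 144 CPM and the primitive endoderm list 222, 140, 109 and 141 CPM, both lowest at 2 to 4 UMIs. The naive list went from 727 to 1506 and 1938 CPM and then read 1806 CPM (1723 to 1892), while the formative list went from 465 to 717, 806 and 941 CPM (882 to 1004). The highest Trh step therefore had less of the naive list than the step before it and more of the formative list. The counting intervals overlapped for the naive list (1873 to 2005 in the step before) but not for the formative list (764 to 849). Utf1, itself a partner of Trh, was the most abundant formative gene in LB, at 332 CPM against 116 CPM for Dnmt3b. Over the same steps Utf1 was found in 36.0%, 71.8%, 85.0% and 90.4% of cells. Dnmt3b was found in 26.7%, 32.5%, 31.8% and 39.6%, and Fgf5 in 2.13%, 2.38%, 1.73% and 3.05%. The formative sum is therefore not read as a shift of the whole list.

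**Figure D3:**
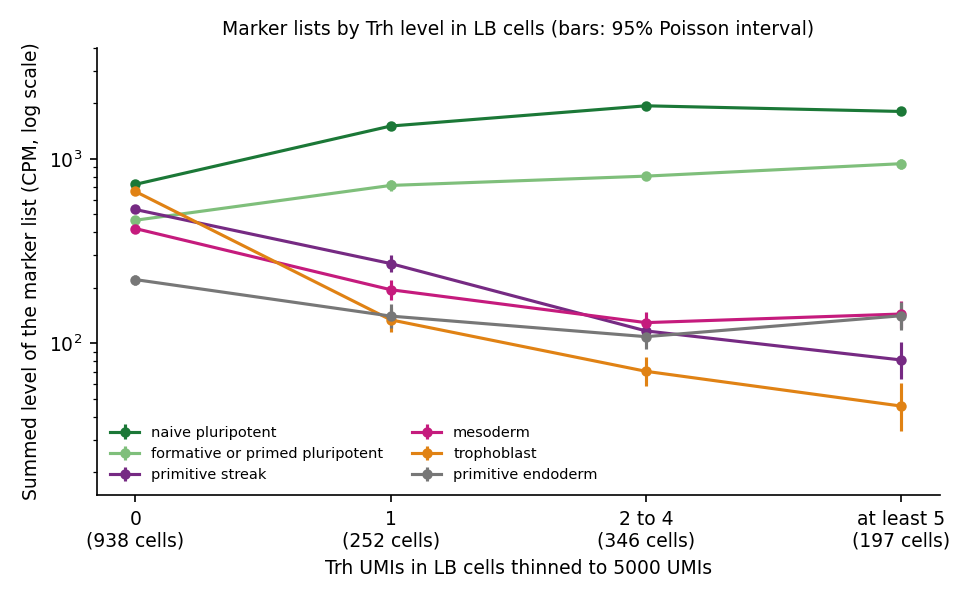
Summed level of each marker list (vertical axis, CPM on a log scale) in LB cells grouped by their Trh UMIs after thinning to 5000 UMIs (horizontal axis), with 95% Poisson intervals. The naive and formative lists lie higher in cells with Trh, and the streak, mesoderm and trophoblast lists lie lower, with trophoblast going from 665 to 45.7 CPM.

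Inside the naive pluripotent-like cluster the correlations were weaker and the order changed. None of the 4821 genes passed 0.4 over its 761 cells, and the highest were H2afz, a histone variant (0.337), Mkrn1 (0.314), Tcf15, a transcription factor of cells leaving the naive state (0.297), Srm, spermidine synthase (0.292), and Eif5a, the translation factor that carries hypusine (0.276). Dppa5a, among the first partners over all LB cells, had an r of -0.104 there. Of the 13 naive genes 4 were positive and 9 negative, and of the 11 formative or primed genes all 11 were positive, from 0.014 for Lef1 to 0.235 for Utf1, where 70.3% of the 4821 genes were positive. The lowest values belonged to Fabp3, a fatty acid binding protein (-0.279), and to ribosomal protein genes such as Rpl37 (-0.242). These correlations are weak and are given as a description.

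Most partners stayed well detected in LBPXRS. Of the 15, 6 were lower and 9 higher in LBPXRS than in LB, with a median log2 ratio of 0.36, where the median of the 7661 genes was -0.17. At least 4-fold lower were 2 of the 15, 1700097N02Rik (-2.89) and Utf1 (-2.14), and none was at least 4-fold higher, beside 2.88% and 2.04% of all genes. Dppa5a read 2503 CPM (2488 to 2517) in LB and 5029 CPM (5010 to 5049) in LBPXRS. Chchd10 went from 1034 to 3950 CPM, and Zfp42 from 401 to 515 CPM. Mkrn1 went the other way, from 526 to 240 CPM. Against all LB cells the partners thus lay on both sides of no change.

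Because LB mixed several kinds of cells, LBPXRS was also set against the naive pluripotent-like LB cells alone. Trh was 737-fold lower in LBPXRS than in those cells (530 to 1059), a log2 ratio of -8.22. Against the same cells 9 of the 15 partners were lower and 6 higher, 3 of the 15 at least 4-fold lower where 1.35% of 7239 genes were, with a median log2 ratio of -0.65 and a range from -3.86 for 1700097N02Rik to 1.15 for Chchd10. Sox2 (0.0042) and Gtsf1l (0.011) stood nearly level. The change from 479-fold follows from the higher Trh level of these cells, since the LBPXRS value is the same. Over the 12186 genes with a mean CPM of 1 or more in this comparison, 5580 were lower in LBPXRS and the median was 0.064. The partners were chosen on LB values, which favours genes that are high in these cells, so their place below that median is not read as a result. Of the naive marker list, 12 of 13 genes were higher in LBPXRS than in all LB cells (median 1.25), and of the formative or primed list 10 of 11 were lower (median -2.14), where 5302 of 12618 genes were higher and 7316 lower (median -0.14).

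**Figure D4:**
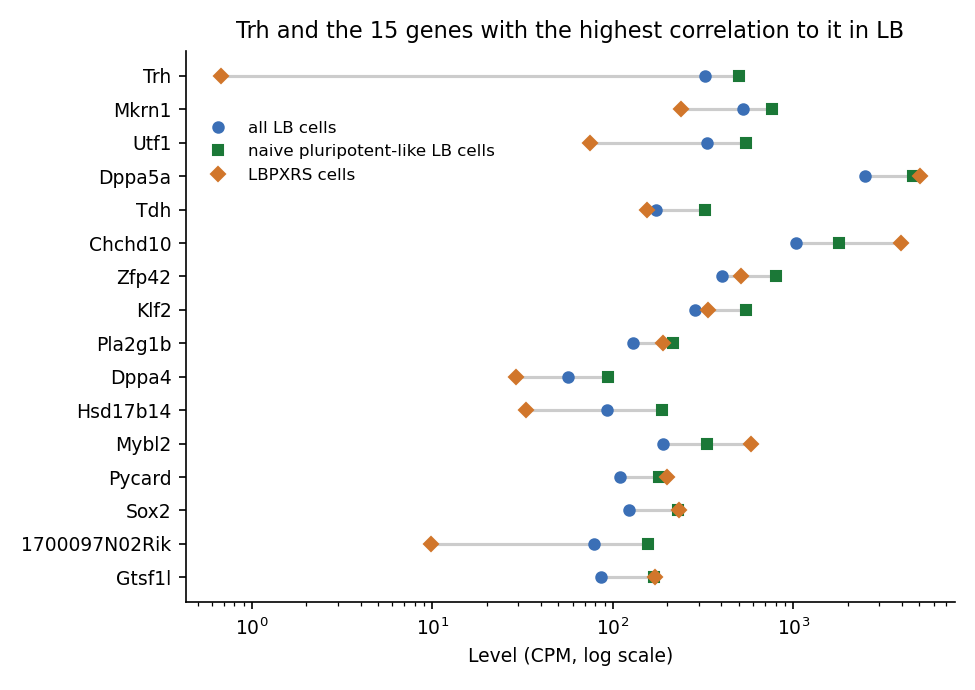
Level (horizontal axis, CPM on a log scale) of Trh and of the 15 genes with the highest correlation to it in LB, for all LB cells (circles), naive pluripotent-like LB cells (squares) and LBPXRS cells (diamonds). Trh alone spans from 498 to 0.675 CPM, and the widest gap among the partners is that of 1700097N02Rik.

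The other genes with the largest falls lay in other LB cells than Trh did. T, Psmb8, Fgf8 (a growth factor of the streak) and Isg15 (an interferon-induced modifier) were highest in primitive streak-like cells, and Hand1 and H19 (an imprinted non-coding RNA) in mesoderm-like cells. Their correlations with Trh ran from -0.373 to -0.305, and naive pluripotent-like cells held 0.889% to 2.79% of their LB UMIs. Lefty2 was the exception, with an r of 0.306, 66.4% of its LB UMIs in naive pluripotent-like cells, and its highest level, 180 CPM, in the cluster that was also highest for Trh. Lefty2 read 71.9 CPM (69.5 to 74.4) in LB and 0.251 CPM (0.134 to 0.429) in LBPXRS.

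The 35 Trh UMIs of LBPXRS were scattered thinly. Of the 30 cells, 27 held 1 UMI, 2 held 2 and 1 held 4, and their median depth was 20332.5 UMIs against 19046 in cells without Trh. The level of the library, 0.675 CPM, lay below that of the LB cluster lowest in Trh, 7.66 CPM (4.19 to 12.8), in which 16% of cells (8.55 to 26.3) held a Trh UMI without thinning, at a median of 24528 UMIs, against 1.11% (0.749 to 1.58) in LBPXRS. At 5000 UMIs that cluster rests on 1 cell. It belongs to a library far richer in Trh, so it sets no background level for LBPXRS, and whether the 35 UMIs are background or expression was not tested. The libraries shared 10 barcodes, and 1 of the 30 cells had such a barcode, whose LB counterpart held 20 Trh UMIs.

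The UMIs were not even over LBPXRS clusters. The cluster with the most held 131 cells (4.84% of LBPXRS) and was led by Krt8, Id3 and Krt18, genes of simple epithelia and of BMP response, and it was left without a name. It held 14 of the 35 UMIs (40%) in 9 cells (6.87%, 3.19 to 12.6), of which 1 cell held 4. The other 2574 cells held 21 UMIs in 21 cells (0.816%, 0.506 to 1.24). Per UMI sequenced, Trh was 15.03-fold higher in that cluster (7.07 to 31.0), at 6.36 CPM, although its cells were shallower than the library, with a median of 15954 UMIs. The cluster was picked for this count, so the ratio is a description. Its 6.36 CPM (3.48 to 10.7) and the 7.66 CPM (4.19 to 12.8) of the lowest LB cluster have overlapping intervals.

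Of the 15 LB partners, 6 were higher in the 30 LBPXRS cells with Trh than in the other LBPXRS cells with intervals that did not overlap (Mkrn1, Utf1, Zfp42, Klf2, Dppa4 and 1700097N02Rik), none was lower and 9 overlapped, where 7.49% of the 4821 genes were higher by the same rule. Of the 13 UMIs of 1700097N02Rik, 6 came from 1 cell. Outside the Krt8 and Krt18 cluster 4 were higher (Utf1, Chchd10, Dppa4 and Pycard) and 11 overlapped, where 3.42% of genes were higher. Utf1 read 145 CPM in them (117 to 178) against 73.5 CPM in the other LBPXRS cells (71.1 to 75.8), and outside the Krt8 and Krt18 cluster 111 CPM (82.3 to 146) against 73.2 CPM. Mkrn1 read 397 CPM (349 to 449) against 238 CPM, and outside that cluster 266 CPM (221 to 318) against 236 CPM (231 to 240), where the intervals overlap. Dppa4 read 52.6 CPM (36.2 to 73.8) against 28.6 CPM, and outside the cluster 48.8 CPM (30.6 to 73.8) against 27.9 CPM. Dppa5a did not stand apart, at 4982 CPM (4809 to 5160) against 5030 CPM. Id3 read 132 CPM in the Trh cells against 4.78 CPM, but 54 of its 83 UMIs came from 1 cell. The Poisson intervals do not cover the spread between cells, and 30 cells are few.

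The machinery that would make and sense the peptide was mostly low in both libraries and showed no shift of the size seen for Trh. Of the 27 genes of that list 24 had a UMI, and 15 had a mean CPM of at least 1. Of those 15, 5 were lower and 10 higher in LBPXRS (median log2 ratio 0.29), where 7316 of 12618 genes passing the same filter were lower (median -0.14). Of the 8 that reached a CPM of 10 none was at least 4-fold lower and 3 were at least 4-fold higher by their log2 ratio, beside 2.88% and 2.04% of all genes. Of those 3, Cpe and Qpct reached that CPM in LBPXRS only, where they were high. Pam, 4.11-fold lower in LBPXRS as a plain ratio, reached it in neither library. The filter thus favours a rise, and these counts are not read as a result. With no filter beyond 1 UMI, 13 of 24 list genes were lower, a count given without the share over all genes and not read as a result.

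The receptor Trhr had 0 UMIs in either library, which allows up to 0.0659 CPM in LB and 0.0579 CPM in LBPXRS at 3 counts. Its paralog Trhr2 had 3 UMIs in LB and 0 in LBPXRS. The ectoenzyme Trhde, which degrades TRH, also had 0 in both. Receptor and ectoenzyme were thus at or under the limit of detection.

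Among the processing enzymes, the neuroendocrine convertase Pcsk1 read 2.11 CPM (1.71 to 2.58) in LB and 0.907 CPM (0.666 to 1.21) in LBPXRS, and Pcsk2, its partner in secretory granules, had 7 UMIs and 0. The widely expressed convertase Furin read 12.1 and 10.9 CPM, with intervals that overlap. Pcsk5 read 1.41 and 0.193 CPM, and Pcsk6 went the other way, from 4.95 to 21.0 CPM, which is 4.24-fold as a plain ratio and 1.89 on the log2 scale with the pseudocount. Convertases thus moved in both directions, and none was abundant.

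The enzymes that finish the peptide also diverged. Carboxypeptidase E, Cpe, read 4.42 CPM in LB and 22.6 CPM in LBPXRS (log2 ratio 2.12), and the related Cpd read 7.91 and 5.05 CPM. The glutaminyl cyclase Qpct read 1.56 and 12.9 CPM (2.44), and Qpctl, its Golgi counterpart, 2.73 and 4.23 CPM. The amidating enzyme Pam, the only one of its kind, read 4.99 CPM (4.36 to 5.68) and 1.22 CPM (0.934 to 1.56), a log2 ratio of -1.43. In the naive pluripotent-like LB cells, where most Trh lay, Pam read 0.960 CPM, Cpe 1.44 CPM and Pcsk1 1.06 CPM. Of the 15 list genes that passed the filter, 9 were lower and 6 higher in these cells than over all of LB. The higher ones included Pcsk6 at 7.77 CPM and Chga at 4.42 CPM. Pcsk1n (12.2 CPM in both), Qpct (1.63 against 1.56 CPM) and Qpctl (2.83 against 2.73 CPM) were nearly level. These cells are part of the LB total and no share over all genes is given, so the split is not read as a result.

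Of the genes tied to granules, Pcsk1n, which encodes the convertase inhibitor proSAAS, read 12.2 CPM in LB and 139 CPM in LBPXRS (log2 ratio 3.41), and chromogranin A, Chga, read 3.08 and 7.56 CPM. The cytosolic peptidases Pgpep1 and Prep, which can cut TRH, read 21.3 and 21.8 CPM and 20.7 and 15.03 CPM. The thyroid hormone receptor gene Thra read 20.05 CPM (18.8 to 21.4) and 20.8 CPM (19.6 to 22.1), which did not differ beyond counting error, and Thrb had 8 UMIs and 0. The pituitary hormone subunit gene Cga read 0.572 and 2.49 CPM.

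Other peptide precursors did not share the level of Trh in LB, and most were too low there for a fall of its size to be seen. Of 58 such genes 48 had a UMI and 15 had a mean CPM of at least 1, of which 7 were lower and 8 higher in LBPXRS (median log2 ratio 0.035, which turned to -0.018 under stricter cell filters and to -0.19 without genes of chromosomes 8, 11 and Y). Over all genes passing the same filter 7316 of 12618 were lower (median -0.14). With no filter beyond 1 UMI, 31 of 48 precursor genes were lower, also without a share over all genes and not read as a result. Of the 6 precursor genes that reached a CPM of 10 none was at least 4-fold lower and 1 was at least 4-fold higher, beside 2.88% and 2.04% of all genes. That gene was Tac2, the neurokinin B precursor, which read 0.352 CPM in LB and 16.9 CPM in LBPXRS (3.73). Tac2 reached a CPM of 10 in LBPXRS only, where it was high, so its place in the count is not read as a result. The highest in LB was Apela, a peptide ligand of the apelin receptor, at 66.4 CPM in LB and 44.5 CPM in LBPXRS. Nmb, neuromedin B, read 28.9 and 13.7 CPM, and Calca, the calcitonin precursor, 26.8 and 39.4 CPM. Apln, the apelin precursor, read 6.73 and 0.0965 CPM (-2.82) but lay under the CPM of 10 used for counting. As a plain ratio Apln was 69.7-fold lower in LBPXRS (29.6 to 216). Adm was 8.14-fold lower (5.14 to 13.5), and Npb went the other way, 3.31-fold higher (2.38 to 4.66). Pomc read 13.1 and 8.66 CPM. Trh, at 323 CPM in LB, was above each of these 58 genes there.

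**Figure D5:**
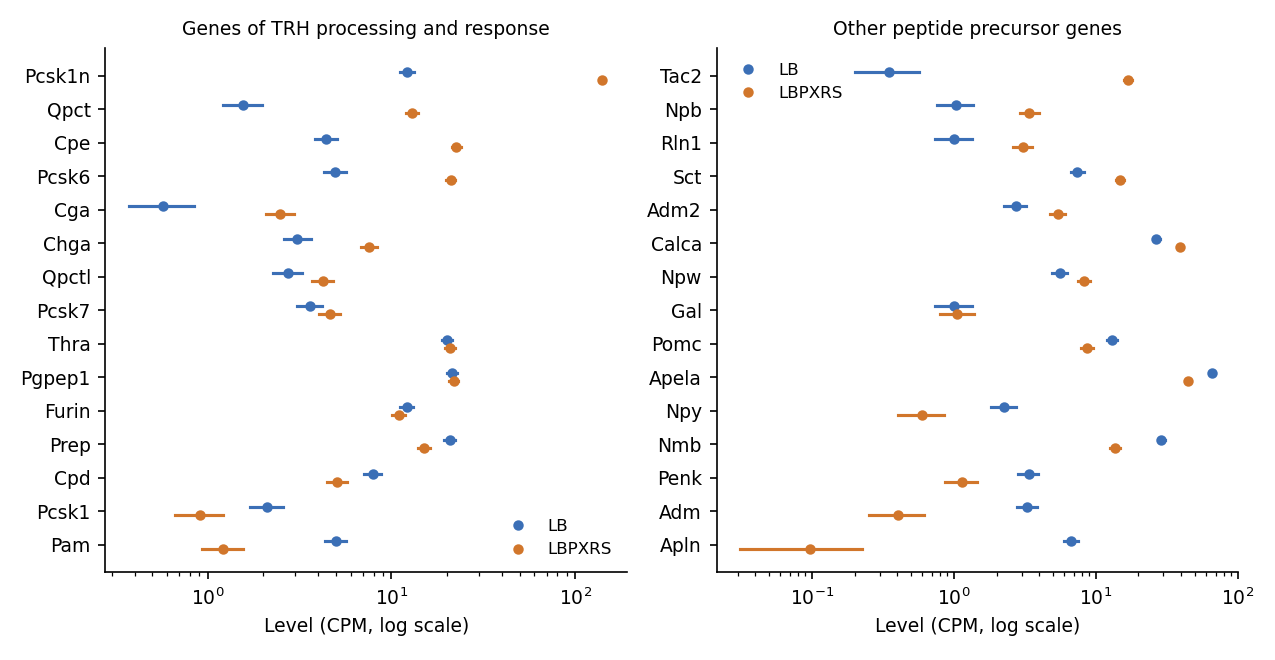
Level (horizontal axes, CPM on a log scale) in LB (blue) and LBPXRS (orange) of genes of TRH processing and response (left) and of other peptide precursors (right) with a mean CPM of at least 1, with 95% Poisson intervals narrower than the points where not seen. Pcsk1n (12.2 to 139 CPM) and Tac2 (0.352 to 16.9 CPM) lie at the top, and Pam and Apln at the bottom.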

How the data were processed

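The authors deposited UMI counts per gene and barcode made with Cell Ranger 4.0.0 on mm10, per the submitters' processing notes, from 10x 3′ version 2 libraries. The gene annotation and cell-calling settings are not given in the sources used here. Barcodes with under 1000 genes or over 10% mitochondrial UMIs were left out. Scrublet (scanpy 1.11.5) called 18 LB cells (1.01%) doublets, 17 of them with Trh, and 10 LBPXRS cells (0.370%). So few marks mean that doublets may remain. Marked cells were kept.

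UMIs were summed over cells and scaled to CPM. Log2 ratios use a pseudocount of 1, which understates the change of low genes. Poisson, binomial (Clopper-Pearson) and conditional ratio intervals are exact, at 95%. The limit for a count of 0 is 3 counts. With 1 library per condition no test across samples was made. Each library was clustered without Trh (2000 variable genes, 30 principal components, 15 neighbours, Leiden resolution 0.5). A cluster was named when at least 3 markers of a class reached a CPM of 5 and were at least 1 higher on the log2 scale than in the other cells, the class median was at least 1 and its 10 leading genes (CPM of at least 20) did not favour another class. These thresholds were set after clusters were seen. Clusters without a name held 18.2%, 4.21% and 3.37% of LB cells and all of LBPXRS. Correlations used log1p of UMIs per 10000.

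Named genes were Trh, the members of the pathway, peptide precursor and marker lists, the 15 highest and 8 lowest correlations in LB, the 5 genes on either side of Trh, and the other largest falls. Genes named within the naive pluripotent-like cluster, cluster leaders, Y-linked genes and Ftl1-ps1 were chosen after their values were seen. The gene and lists were chosen with earlier results of these data known. GENCODE held 32158 of the 32285 identifiers, and the promoter table held 1 entry for Trh. The functions were tested on simulated data.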

Additional observations from a re-analysis of the deposited data

Results flagged for a closer look

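The LB barcodes that the filters left out carried Trh. These 225 barcodes were used in no main comparison, only in the alternative with all deposited barcodes, where the Trh log2 ratio was -7.63. They held 537 Trh UMIs in 88 barcodes, a level of 726 CPM (95% Poisson interval 666 to 790), against 323 CPM in the kept cells. Left-out LB barcodes with under 1000 genes read 599 CPM (476 to 743), and those over the mitochondrial limit only read 754 CPM (687 to 827). The 406 barcodes left out of LBPXRS held 0 Trh UMIs, which allows up to 4.12 CPM at 3 counts. The cause was not tested.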

How the results depend on the processing

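Of 66 alternative values for 11 results, 46 stayed within the margins set and 20 moved, and the direction of the Trh difference was the same in each alternative run for it. The Trh log2 ratio was -8.70 with a pseudocount of 0.1, -7.81 without genes of chromosomes 8, 11 and Y, and -8.22 against naive pluripotent-like LB cells only. The last 2 settings, and correlation within that cluster, were chosen after seeing the data. Over the 12618 genes that passed the list filter the median was -0.14, and it was 0.0031 with TMM scaling (edgeR 4.0.16) and 0.024 with median-of-ratios scaling, while the pathway median stayed above both, at 0.41 and 0.43. Genes at least 4-fold lower numbered 98 of 7239 against those LB cells and 357 with a CPM of at least 1, instead of 221. Pathway genes lower in LBPXRS numbered 1 of 14 against those cells and 13 of 24 with no filter beyond 1 UMI, instead of 5 of 15. Peptide precursor genes lower numbered 2 of 10 and 31 of 48, instead of 7 of 15. Of all genes, 5580 of 12186 were lower against those cells and 7316 of 12618 in the main setting. No share over all genes is given without the filter, so the counts there are not read as a result about the lists. The share of LB cells with Trh was 65.3% without thinning, 54.7% at 10000 UMIs and 31.3% with at least 2 UMIs, and that of LBPXRS cells 1.11%, 0.638% and 0.0382%. The cluster highest in Trh held 7.84% of LB Trh UMIs at resolution 1, and the top 10% of cells held 53.3% after thinning. Of the 15 partners 9 were kept on thinned cells, 8 over LB cells with Trh and 1, Mkrn1, within the naive pluripotent-like cluster. The cause of these moves was not tested beyond what each setting changes by construction. No paired analysis was possible because each condition had 1 library.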

Other observations

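At a finer clustering (Leiden resolution 1), the 761 naive pluripotent-like LB cells fell into groups that differed in Trh. A group of 124 cells, 123 of them naive pluripotent-like before, led by Ms4a10 and D630023F18Rik read 625 CPM (598 to 653), a group of 459 cells, all from that cluster, that kept the naive name read 529 CPM (516 to 541), and a group of 177 cells, also all from it, led by Calb2 and S100a13 read 285 CPM (270 to 301). The other 2 cells joined the cluster highest in Trh. From the primitive streak-like cluster came 88 germ cell-like cells led by Dnd1 and Rab6b, with Prdm14 and Lefty1 among their leading genes, which read 83.6 CPM (71.1 to 97.7), and 40.9% of them held a Trh UMI. The 178 cells named primitive streak-like at this resolution read 31.2 CPM (26.0 to 37.2). Of them 128 came from the earlier primitive streak-like cluster, 48 from the Fgf5 and Dnmt3b cluster and 2 from the mesoderm-like cells.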
